A study of Mus musculus with 6 samples.

Results

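The genes described are 10 receptors and adaptors that set how readily a myeloid cell responds: the inhibitory receptors Cd200r1, Sirpa, Pirb, Lilrb4a, Cd300a, Cd300lf, Clec12a and Lair1, the activating receptor Trem2, and Tyrobp, which encodes the adaptor DAP12. They were taken as a fixed list, and every probe set annotated with 1 member symbol alone was used. That gave 15 probe sets for 8 of the 10 genes, out of 45101 probe sets and 18194 genes. Clec12a was not analysed here, and the 1 probe set of Lilrb4a also carries Lilr4b, so neither is given a value.

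The samples were resident macrophages of the peritoneal cavity, sorted as cells with much CD11b and little or no MHC class II. The Gata6-KO pools came from mice in which a floxed Gata6 allele was deleted (3 arrays), and the others from wild type mice (Gata6-WT, 3 arrays). Gata6 encodes a transcription factor. All mice were 7 weeks old, each array held total RNA of 2 to 3 pooled mice, and the labels call the pools biological replicates. Which Cre line was used, and which exons it removed, is not stated in the labels used here.

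Inhibitory receptors of this kind carry short tyrosine motifs in their tails (ITIMs, or in CD200R1 a different docking motif). Src family kinases phosphorylate these motifs, which then bind phosphatases such as SHP-1 and SHIP-1, or the adaptors DOK1 and DOK2, and damp signals from activating receptors. Receptors such as TREM2 lack a signalling tail and work through DAP12, whose activating motif (ITAM) recruits the kinase SYK. On macrophages these pathways are known to set the threshold for phagocytosis, cytokine release and survival.

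The values are linear probe set intensities, scaled by the authors to a trimmed mean of 500 on every array, with array medians of 79.7 to 88.5. The targeted gene was lower in Gata6-KO at 2 of its 3 probe sets: 180 ± 6.47 against 423 ± 76.6 at the dimmest and 3497 ± 828 against 6372 ± 938 at the brightest (SD, n = 3). At the remaining one it was 1758 ± 399 in Gata6-KO and 1775 ± 443 in Gata6-WT. Where these probe sets lie relative to the deletion is not known here, so they are a limited check of the labels. By Xist and Eif2s3y, both pools numbered 1 looked male and the pools numbered 2 and 3 looked female, so differences are also given by replicate number where this matters. All 6 general macrophage markers were bright enough to be tested. Adgre1, Cd68 and Fcgr1 were lower in Gata6-KO, Fcgr1 at 148, 96.2 and 200 against 1104, 1383 and 842, while Csf1r, Lyz2 and Itgam did not pass the test.

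Promoter sequences were available for 6 of the 10 members. The 250 bases before the RefSeq start site (GRCm38.p6) of 3 of them follow, chosen because they cover a member that changed (Cd300a), the adaptor-linked receptor (Trem2) and a member that did not pass (Pirb). The promoter of Cd200r4, a paralogue of Cd200r1 that changed, is given with them. Capitals mark a match, on either strand, to a GATA spelling (AGATAA, or the letters AGATAG, or the letters TGATAA, or the letters TGATAG) or to GAGGAAGT, a spelling bound by the myeloid factor PU.1. Each reads 5′ to 3′ on the gene's strand.
Cd300a, chr11:114889791-114890040, plus strand: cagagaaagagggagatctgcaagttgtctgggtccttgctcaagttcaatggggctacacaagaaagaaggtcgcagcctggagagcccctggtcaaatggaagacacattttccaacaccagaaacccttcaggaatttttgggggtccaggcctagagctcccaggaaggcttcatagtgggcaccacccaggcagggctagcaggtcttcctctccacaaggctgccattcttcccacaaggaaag
Trem2, chr17:48346151-48346400, plus strand: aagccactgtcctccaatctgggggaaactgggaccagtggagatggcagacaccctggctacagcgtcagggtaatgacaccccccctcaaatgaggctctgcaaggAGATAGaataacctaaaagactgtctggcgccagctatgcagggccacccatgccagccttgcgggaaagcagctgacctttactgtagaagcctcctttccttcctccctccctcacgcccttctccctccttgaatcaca
Pirb, chr7:3720383-3720632, minus strand: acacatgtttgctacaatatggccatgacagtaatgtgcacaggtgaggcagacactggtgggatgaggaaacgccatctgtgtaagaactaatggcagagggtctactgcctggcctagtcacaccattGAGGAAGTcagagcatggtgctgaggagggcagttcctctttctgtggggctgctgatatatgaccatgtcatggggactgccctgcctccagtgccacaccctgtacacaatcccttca
Cd200r4, chr16:44820478-44820727, plus strand: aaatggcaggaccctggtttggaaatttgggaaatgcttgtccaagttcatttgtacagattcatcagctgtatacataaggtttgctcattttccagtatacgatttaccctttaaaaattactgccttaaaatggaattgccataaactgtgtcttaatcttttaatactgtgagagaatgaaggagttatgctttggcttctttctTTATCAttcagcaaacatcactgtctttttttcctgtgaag
The stretch before Cd300a held neither kind of letters. Trem2 had AGATAG with its first base 142 bases before the start (-142), Cd200r4 had TGATAA on the opposite strand at -41, and Pirb had GAGGAAGT at -120. Of the 6 member promoters, 1 held a GATA spelling and 1 held GAGGAAGT. Over all 32851 promoters of this length, 26.5% held a GATA spelling and 2.44% held GAGGAAGT. These are matches of letters in a short window and not binding sites.

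Of the 8 measured members, Cd200r1 and Cd300a were lower in Gata6-KO macrophages, 0 were higher, and 6 did not pass the test. Cd200r1 was at 49.9% of its wild type signal and Cd300a at 71.7%. At an unadjusted p under 0.05, 4 were lower and 0 higher, against 15.9% and 11.9% of all genes tested. The test was limma on log2(signal + 16), with p-values adjusted over all 27022 probe sets tested and a threshold of 0.05. Where a gene had several tested probe sets, the one with the highest mean stood for it. Over all 12511 genes tested, 13.1% passed, 7.46% lower and 5.61% higher. The members' median log2 difference was -0.35, against -0.04 over all genes tested. All 8 represented differences lay below 0, as did those of 6735 of the 12511 genes. With the mean of each gene's probe sets instead, Sirpa (0.19) and Lair1 (0.08) lay above 0. At the level of single probe sets, 2 of the 14 tested for these genes were lower, against 5.67% of all probe sets (10.8% changed in either direction). The other 12 did not pass. Of the 14, 10 lay below 0 and 4 above, the 4 above being other probe sets of Sirpa and Lair1. In bulk RNA, fewer cells of a type and less RNA per cell cannot be told apart.

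**Figure D1:**
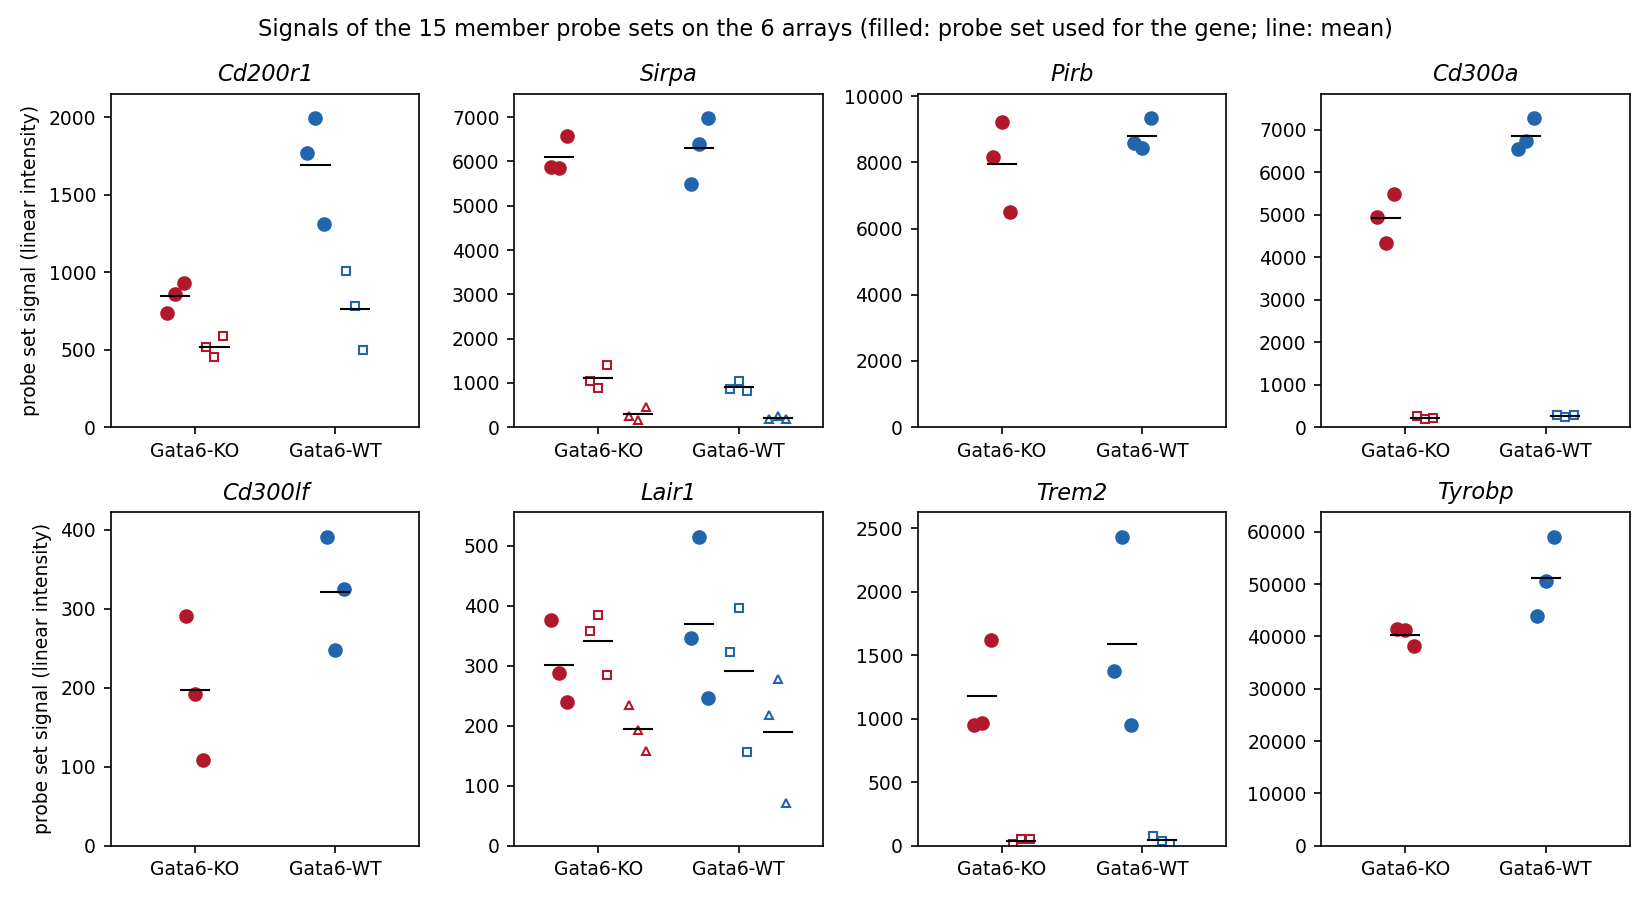
Signals of the 15 member probe sets (linear intensity, y axis, from 0) on the 3 Gata6-KO arrays (red) and the 3 Gata6-WT arrays (blue), each gene on its own scale. Filled circles are the probe set used for the gene, open symbols its other probe sets, and lines the group means; the red and blue filled circles do not overlap for Cd200r1, Cd300a and Tyrobp.

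Cd200r1 encodes the receptor of CD200, a ligand on neurons, endothelium and lymphocytes that restrains myeloid cells. At its brighter probe set the signal was 739, 860 and 932 in Gata6-KO replicates 1, 2 and 3, against 1767, 1993 and 1312 in Gata6-WT replicates 1, 2 and 3. Every Gata6-KO array lay below every Gata6-WT array. The mean was 844 ± 97.4 in Gata6-KO and 1691 ± 347 in Gata6-WT (SD, n = 3), a fall of 1.96-fold (log2 -0.97 ± 0.17 SE, 95% interval -1.36 to -0.59, limma adjusted p = 0.0061; exact permutation p = 0.1, the smallest that 3 against 3 arrays allow). The second probe set had 515, 452 and 585 in Gata6-KO and 1007, 783 and 498 in Gata6-WT. Here the groups overlapped, because Gata6-WT replicate 3 was low, and the log2 difference of -0.50 did not pass (adjusted p = 0.23; 0.032 without Gata6-WT replicate 3). The mean over both probe sets was lower by a log2 difference of -0.74 (adjusted p = 0.035).

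The Cd200r1 difference was log2 -1.24 between the replicates numbered 1, -1.20 between those numbered 2 and -0.49 between those numbered 3. With 1 array left out it ran from -1.14 to -0.85, and the call was kept each time. In the female-type replicates 2 and 3 alone it was -0.84 with an adjusted p of 0.069. Cd200r1 is also known from mast cells, whose marker genes were weak on these arrays: the summed signal of 5 mast cell markers was 325 to 489 in Gata6-KO and 489 to 606 in Gata6-WT. Among them, the chymase gene Cma1 had 125, 26.1 and 87.1 against 157, 185 and 252, and Cpa3, a mast cell protease, 125, 145 and 206 against 250, 284 and 305 (adjusted p = 0.083 and 0.051). The other 3 were too dim to be tested, and their groups overlapped. The tryptase gene Tpsb2 had 20.4, 89.1 and 106 against 16.8, 30.3 and 10.3, and Kit 50.7 ± 6.70 against 44.1 ± 18.3. Mcpt4 had 8.26, 8.91 and 46.5 in Gata6-KO against 19.5, 24.1 and 12.9 in Gata6-WT. The part of such cells in the Cd200r1 difference was not tested.

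Cd200r4, the neighbour of Cd200r1 on chromosome 16 with no protein-coding gene between them in RefSeq, fell with it. Its product is an activating relative that pairs with DAP12. Its signal was 498, 751 and 642 in Gata6-KO and 1511, 1385 and 1074 in Gata6-WT, without overlap (log2 -1.06 ± 0.18, adjusted p = 0.0061, and 0.057 in replicates 2 and 3 alone). The log2 ratio of Cd200r4 to Cd200r1 differed by -0.08 between the genotypes (exact permutation p = 0.7). Cd200r3, a further gene of this cluster known from mast cells and basophils, was too dim to be tested, at 3.11, 6.66 and 3.06 in Gata6-KO and 107, 47.4 and 86.8 in Gata6-WT. Cd200r2 was not analysed here. Genes of this cluster are similar in sequence, and whether probe sets cross-detect their transcripts was not tested.

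Cd300a encodes an ITIM receptor that binds phosphatidylserine and phosphatidylethanolamine on dying cells. At its brighter probe set the signal was 4945, 4330 and 5485 in Gata6-KO and 6562, 6745 and 7276 in Gata6-WT. The groups did not overlap, and the 3 replicate numbers gave log2 differences of -0.41, -0.64 and -0.41. The mean was 4920 ± 578 in Gata6-KO and 6861 ± 371 in Gata6-WT (SD, n = 3), a fall of 1.40-fold (log2 -0.48 ± 0.11 SE, 95% interval -0.74 to -0.23, limma adjusted p = 0.026). The call was kept in 2 of 6 fits that left out 1 array, and the direction did not change in any of them. Leaving out Gata6-KO replicate 1 gave an adjusted p of 0.074, leaving out Gata6-KO replicate 2 gave 0.11, and leaving out Gata6-WT replicate 2 or replicate 3 gave 0.078 or 0.066. In replicates 2 and 3 alone the log2 difference was -0.52 (adjusted p = 0.097). Over the 6 fits with 1 array left out it ran from -0.57 to -0.40. The dimmer probe set had 262, 194 and 210 against 278, 242 and 294, a log2 difference of -0.28 with an adjusted p of 0.40. The mean over both probe sets gave -0.38 (adjusted p = 0.071).

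Cd300lf encodes a further inhibitory receptor of the same chromosome 11 cluster, known in the mouse as the entry receptor of murine norovirus. Its signal was 290, 193 and 109 in Gata6-KO and 391, 248 and 325 in Gata6-WT. The groups overlapped, with 290 in Gata6-KO replicate 1 above 248 in Gata6-WT replicate 2. The log2 difference of -0.73 had a wide interval of -1.44 to -0.02 and did not pass (adjusted p = 0.19). Its spread in Gata6-KO (SD of 0.65 on the log2 scale) was exceeded by 7.07% of genes.

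Activating relatives from the Cd300 cluster were examined beside these, chosen after their values were seen. Cd300ld had 1165 and 1015 in Gata6-KO replicates 1 and 2 but 3399 in replicate 3, against 3859, 2889 and 3519 in Gata6-WT. That array stood within the wild type range, and the log2 difference of -1.09 did not pass (adjusted p = 0.10). Without Gata6-KO replicate 3 it passed at -1.63 (adjusted p = 7.0e-04), and with the replicate number as a block the adjusted p was 0.045. Cd300lb, the coding gene next to Cd300a, had 6050 ± 1105 against 6823 ± 723 (log2 -0.19, adjusted p = 0.49). Cd300c2 had 584 ± 109 against 608 ± 122 (log2 -0.05, adjusted p = 0.90).

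Sirpa encodes the receptor of CD47, the signal by which healthy cells avoid being engulfed. At its brightest probe set the signal was 5865, 5844 and 6569 in Gata6-KO and 5501, 6402 and 6977 in Gata6-WT. The groups overlapped fully, and the log2 difference of -0.04 had a 95% interval of -0.31 to 0.22 (adjusted p = 0.87), which corresponds to 0.81-fold to 1.17-fold. The other probe sets had log2 differences of 0.26 and 0.35 (adjusted p = 0.41 and 0.55). At all 3 probe sets Gata6-KO replicate 3 was the highest of the Gata6-KO arrays, most of all at the dimmest, where it read 456 and replicates 1 and 2 read 245 and 169. Sirpb1a, which encodes an activating DAP12-linked relative, was lower, at 449, 252 and 326 in Gata6-KO and 713, 564 and 717 in Gata6-WT (log2 -0.95 ± 0.21, adjusted p = 0.020). With 1 array left out at a time, it still passed in 2 of 6 fits.

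Pirb encodes an inhibitory receptor for MHC class I molecules. Its signal was 8169, 9205 and 6495 in Gata6-KO and 8585, 8448 and 9333 in Gata6-WT. The groups overlapped, with Gata6-KO replicate 3 the lowest array (log2 -0.16, 95% interval -0.46 to 0.15, adjusted p = 0.52). Activating Pira genes are close in sequence to Pirb, 3 other probe sets carried both names and were not used, and the value is uncertain to that extent. MHC class I genes that supply its ligand did not pass either: H2-K1 had 36553 ± 563 against 38010 ± 5459 and B2m 54569 ± 5587 against 52804 ± 3759.

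Lair1 encodes an inhibitory receptor for collagens. At the probe set with the highest mean the signal was 375, 288 and 239 in Gata6-KO and 346, 515 and 246 in Gata6-WT. These ranges overlapped in part (log2 -0.24, 95% interval -0.85 to 0.36, limma adjusted p = 0.63). The other probe sets gave 0.30 and 0.19 (adjusted p = 0.59 and 0.82), so the sign was not the same at the 3 probe sets. At each of them Gata6-WT replicate 2 was the highest and Gata6-WT replicate 3 the lowest wild type array, for example 278 and 71.4 at the dimmest. The direction turned at 2 probe sets without Gata6-WT replicate 3 (-0.075 and -0.33) and at the first without Gata6-WT replicate 2 (0.019).

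Trem2 encodes a lipid-sensing receptor that signals through DAP12. Its tested probe set had 949, 963 and 1622 in Gata6-KO and 1377, 2432 and 949 in Gata6-WT. The groups overlapped over most of their range, and the wild type spread (SD of 0.68 on the log2 scale) was exceeded by 5.80% of genes. The log2 difference was -0.36, with a 95% interval of -1.08 to 0.35 (adjusted p = 0.53), and it ran from -0.68 without Gata6-WT replicate 3 to -0.0038 without Gata6-WT replicate 2. The replicate numbers gave -0.53, -1.32 and 0.76. The second probe set was too dim to be tested, at 15.9, 49.9 and 52.4 in Gata6-KO and 73.7, 35.2 and 13.9 in Gata6-WT.

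Tyrobp, the gene of DAP12, had the signals 41405, 41302 and 38208 in Gata6-KO and 43848, 50676 and 59060 in Gata6-WT. Every Gata6-KO array lay below every Gata6-WT array, and the Gata6-KO arrays were close together while the wild type arrays spread more. The mean was 40305 ± 1817 in Gata6-KO and 51195 ± 7620 in Gata6-WT (SD, n = 3; log2 -0.34 ± 0.12 SE, 95% interval -0.61 to -0.06). The difference did not pass (adjusted p = 0.13, unadjusted 0.023, exact permutation p = 0.1), except without Gata6-WT replicate 1 (-0.44, adjusted p = 0.030). After quantile normalization the log2 difference was -0.19. With Cd200r1 and Cd300a, Tyrobp made 3 of 8 members whose groups did not overlap and were lower in Gata6-KO. Over all genes tested the share was 19.4%. Counted by probe set it was 3 of 14, against 16.3% of all tested.

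**Figure D2:**
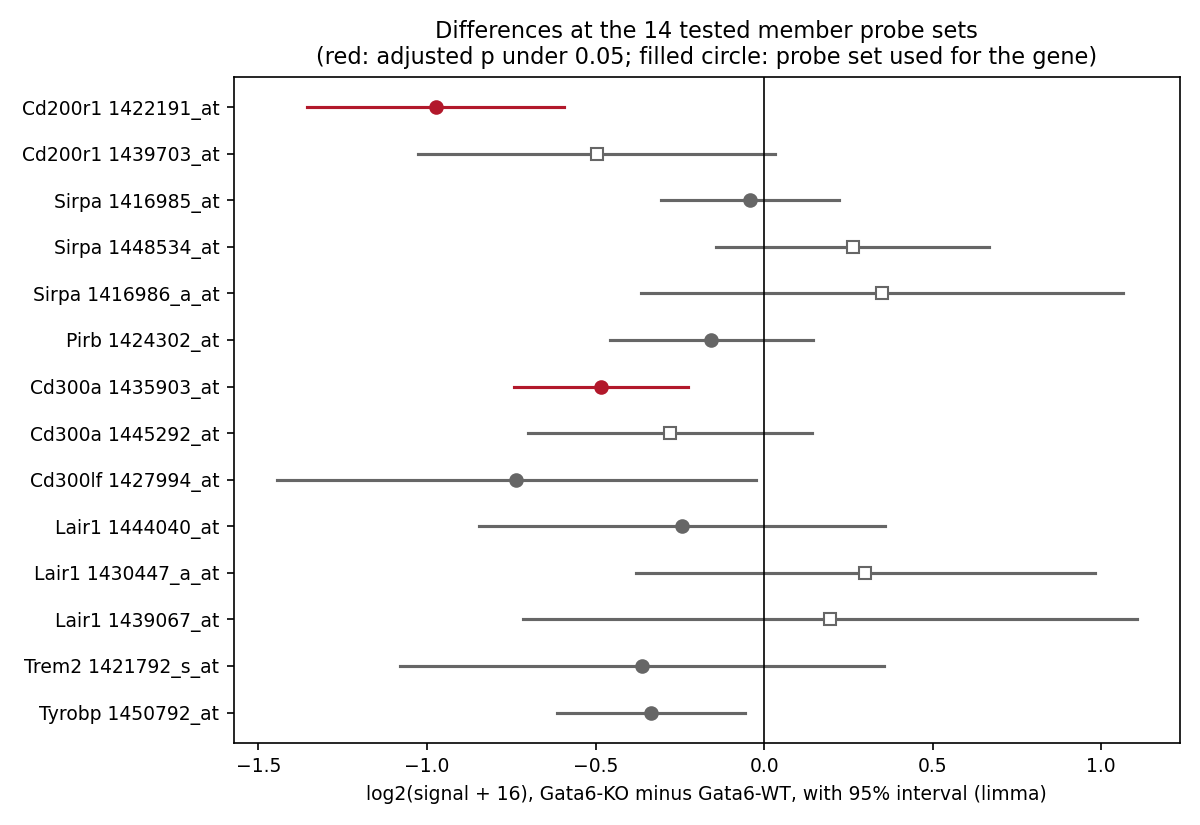
Log2 difference, Gata6-KO minus Gata6-WT, on the log2(signal + 16) scale (x axis) with 95% intervals from limma at the 14 tested member probe sets. Red marks the 2 with an adjusted p under 0.05, at -0.97 for Cd200r1 and -0.48 for Cd300a. The intervals of Sirpa, Pirb, Lair1 and Trem2 span 0, as do those of the second Cd200r1 and Cd300a probe sets. Those of Cd300lf (-1.44 to -0.02) and Tyrobp (-0.61 to -0.06) lie below 0 though neither passed.

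Hcst encodes DAP10, an adaptor like DAP12 that recruits PI3-kinase, and lies next to Tyrobp on chromosome 7, with 129 bases between the genes in RefSeq. It was lower, at 1154, 1094 and 883 in Gata6-KO and 1903, 2104 and 2241 in Gata6-WT, without overlap (log2 -0.99 ± 0.14, adjusted p = 0.0017). Fcer1g, the gene of a further adaptor of this kind, the Fc receptor gamma chain, had 22570 ± 1888 against 19627 ± 1786 and did not pass (log2 0.20, adjusted p = 0.30). Ratios within arrays were compared for 5 pairs of probe sets chosen after their values were seen. The log2 ratio of Hcst to Tyrobp was lower by -0.66 in Gata6-KO and that of Fcer1g to Tyrobp higher by 0.54, both without overlap (exact permutation p = 0.1 each, the smallest possible, and 0.25 adjusted over the 5). The ratio of Trem2 to Tyrobp differed by -0.03, and the groups overlapped. That of the brighter to the second Cd200r1 probe set differed by -0.48, also with overlap (exact permutation p = 0.2).

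Among 20 measured genes of ITAM adaptors and their signalling, Hcst and Fcer1g included, 1 was higher and 2 were lower in Gata6-KO. The other 17 did not pass, and 13.1% of all genes tested passed in either direction. The median log2 difference was 0.08, against -0.04 over all genes tested. Besides Hcst, the ubiquitin ligase gene Cblb fell to 448 ± 19.8 in Gata6-KO, against 848 ± 171 in Gata6-WT (log2 -0.88 ± 0.17, adjusted p = 0.010). Bcl10, which links ITAM receptors to NF-kB, was higher at 3999 ± 307 against 2856 ± 142 (log2 0.48, adjusted p = 0.019), with 2 of its 4 probe sets past the threshold. That call was lost after median scaling, without the mean-variance trend, in replicates 2 and 3 alone, and without Gata6-KO replicate 1 or 2. The kinase gene Syk did not pass, with 2866 ± 88.2 against 3011 ± 404 (log2 -0.06, adjusted p = 0.80).

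The phosphatases that inhibitory receptors recruit did not pass. Ptpn6, encoding SHP-1, had 9887 ± 228 in Gata6-KO and 10811 ± 733 in Gata6-WT, and Inpp5d, encoding SHIP-1, 1721 ± 95.2 and 1977 ± 225 (log2 -0.13 and -0.19). Ptpn11, encoding SHP-2, had 2031 ± 58.2 and 1691 ± 179, without overlap (log2 0.27, adjusted p = 0.19, unadjusted 0.046). Of the 8 genes of inhibitory signalling 1 was higher and 0 were lower, against 5.61% and 7.46% of all genes tested. The median log2 difference was 0.04. The gene that was higher was Rasa1, a RAS inhibitor that binds DOK proteins (2755 ± 237 against 2038 ± 141, log2 0.43, adjusted p = 0.042). Its call was lost in each of the 6 fits that left out 1 array.

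Src family kinases, which phosphorylate both ITIMs and ITAMs, were tested for 2 genes, and both fell, against 7.46% of all genes tested. Fyn had 359, 370 and 441 in Gata6-KO and 886, 936 and 803 in Gata6-WT (log2 -1.14 ± 0.14, adjusted p = 0.0011). Fgr had 1904, 1769 and 1483 against 2674, 2865 and 2753 (log2 -0.69 ± 0.12, adjusted p = 0.0067). Neither pair of groups overlapped, and both calls were kept in all 17 variations of the fit. Src was too dim to be tested.

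Of 8 measured ligand genes 0 passed limma's adjusted test, 2 had an unadjusted p under 0.05 (27.8% of all genes did), and the median log2 difference was -0.04. The smallest p-values were those of Cd47, the SIRPA ligand, with 7559 ± 397 against 6128 ± 374 (log2 0.30, adjusted p = 0.091), and of Clu, clusterin, with 145 ± 46.4 against 223 ± 24.0 (log2 -0.61, adjusted p = 0.15). Cd200, the ligand of CD200R1, was too dim to be tested, at 114, 52.2 and 54.7 in Gata6-KO and 4.51, 1.53 and 5.75 in Gata6-WT. It was singled out after its values were seen, and signals this low are noisy.

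Other inhibitory receptors of myeloid cells changed in both directions, with 3 of 7 measured genes higher and 1 lower (median log2 difference 0.11). Over all genes tested, 5.61% were higher and 7.46% lower. Clec4a2, a lectin receptor with an ITIM, was higher at 1512, 598 and 697 in Gata6-KO against 230, 117 and 86.8 in Gata6-WT (log2 2.54 ± 0.39, adjusted p = 0.0031). Ceacam1, an ITIM adhesion receptor, was higher at 15498 ± 839 against 8197 ± 553 (log2 0.92 ± 0.10, adjusted p = 4.7e-04), with 7 of its 8 probe sets past the threshold. The inhibitory Fc receptor gene Fcgr2b had 25014 ± 4177 against 14751 ± 5022 (log2 0.80, adjusted p = 0.045), with all 4 tested probe sets past the threshold, though the call of the one reported was kept in 2 of 6 fits that left out 1 array. Milr1, an ITIM receptor known from mast cells, fell to 203 ± 93.9, against 587 ± 158 in Gata6-WT (log2 -1.52 ± 0.32, adjusted p = 0.016). Its call was lost without Gata6-WT replicate 1 or 2 and without the mean-variance trend. Of the mast cell markers given above, Cma1 and Cpa3 lay lower in Gata6-KO without passing, and the rest were too dim to be tested. The part of mast cells in the Milr1 difference was not tested.

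Other activating or DAP12-linked receptors had 2 of 13 measured genes lower, Cd200r4 and Sirpb1a, and 0 higher, with a median log2 difference of -0.05. Of all genes tested, 7.46% were lower and 5.61% higher. At an unadjusted limma p under 0.05, 4 were lower and 0 higher, against 15.9% and 11.9% of all genes tested. The triggering receptor gene Trem1 had 281 ± 130 against 159 ± 93.4 and Trem3 158 ± 23.1 against 107 ± 12.2, and neither passed (log2 0.82 and 0.49, adjusted p = 0.25 and 0.21). Csf1r, whose signalling is known to use DAP12, had 57372 ± 5147 against 55392 ± 7553 (log2 0.06, adjusted p = 0.84).

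Genes linked to TREM2 in mouse adipose tissue macrophages and microglia moved both ways. Of 12 measured, 2 were higher and 4 were lower, against 5.61% and 7.46% of all genes tested. The lipid chaperone genes Fabp4 and Fabp5 (log2 -3.95 and -2.71), the tetraspanin gene Cd9 (log2 -2.41) and the lipoprotein lipase gene Lpl (log2 -1.06) fell. Axl, a receptor kinase for apoptotic cells, was higher (log2 1.53, adjusted p = 0.022), as was the lysosomal lipase gene Lipa (log2 0.50, adjusted p = 0.020). With 1 array left out, Axl and Lipa each passed in 3 of 6 fits. The list's median log2 difference was 0.08, and Apoe, a TREM2 ligand, had 48803 ± 3778 against 60419 ± 14542 (log2 -0.28, adjusted p = 0.34). Without Gata6-WT replicate 1 Apoe passed at -0.47 (adjusted p = 0.037).

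**Figure D3:**
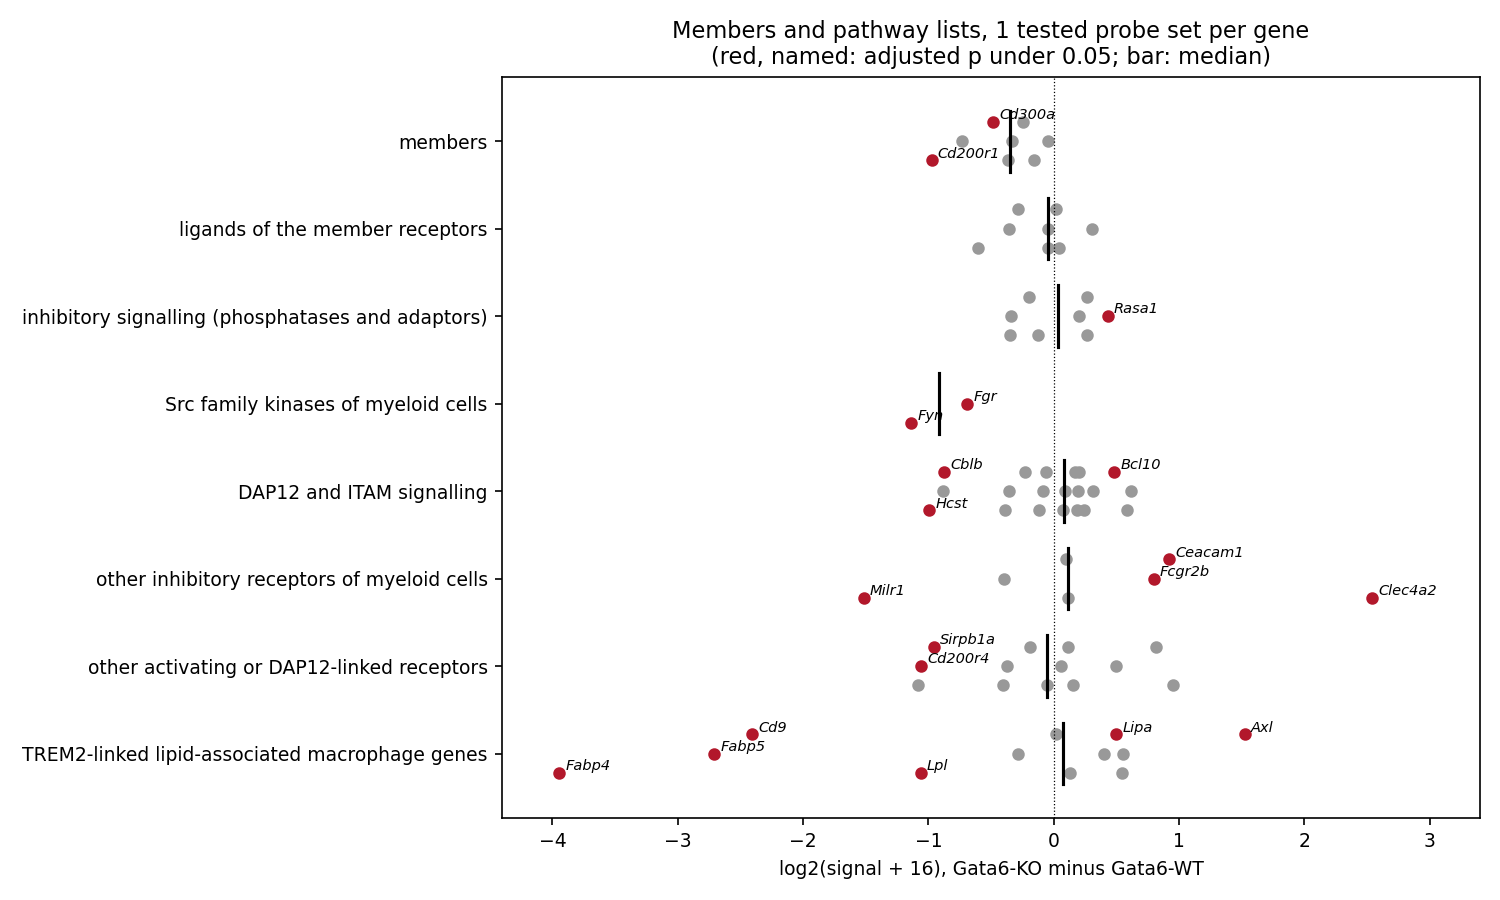
Log2 difference, Gata6-KO minus Gata6-WT (x axis), of each tested gene of the members and of 7 related lists (rows), 1 point per gene and bars at the medians. Red, named points have an adjusted p under 0.05, and the ligand list has none. They lie on both sides of 0 in the ITAM, other inhibitory receptor and TREM2-linked lists. Red points lie only below 0 among the members (-0.97 and -0.48), the Src family kinases (-1.14 and -0.69) and the other activating receptors (-1.06 and -0.95). Inhibitory signalling has 1 red point (Rasa1, 0.43).

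Most markers of other cell types were too dim to be tested. Of 35 listed markers of 8 cell types other than macrophages, 30 had a probe set, 9 were bright enough to be tested, 0 were higher and 1 was lower, the neutrophil gene S100a8 (664, 293 and 507 in Gata6-KO against 1002, 847 and 1484 in Gata6-WT). Pirb and Cd300a are also known from neutrophils. The summed signal of 5 neutrophil markers was 398 to 805 in Gata6-KO and 959 to 1621 in Gata6-WT, and S100a8 made up most of it. Ngp, the other neutrophil marker tested, had 84.0 ± 32.2 against 89.0 ± 19.6, and S100a9, Camp and Ltf were too dim to be tested, with means of 17.9, 27.0 and 10.6 in Gata6-KO against 4.11, 20.5 and 6.20 in Gata6-WT. The sums for T cells, 58.5 to 156 against 77.2 to 210, overlapped between the genotypes, as did those for B cells, 282 to 441 against 348 to 620. The part of these cells in the members' differences was not tested.

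Over 17 variations, Cd200r1 passed in 16, Cd300a in 11 and Tyrobp in 1, and none of the 3 changed direction. The other tested member probe sets passed in 0 of 17, apart from the second Cd200r1 probe set, which passed in 1. In replicates 2 and 3 alone 0 passed after adjustment, and 4 of 14 had an unadjusted p under 0.05, against 20.4% of all probe sets.

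**Figure D4:**
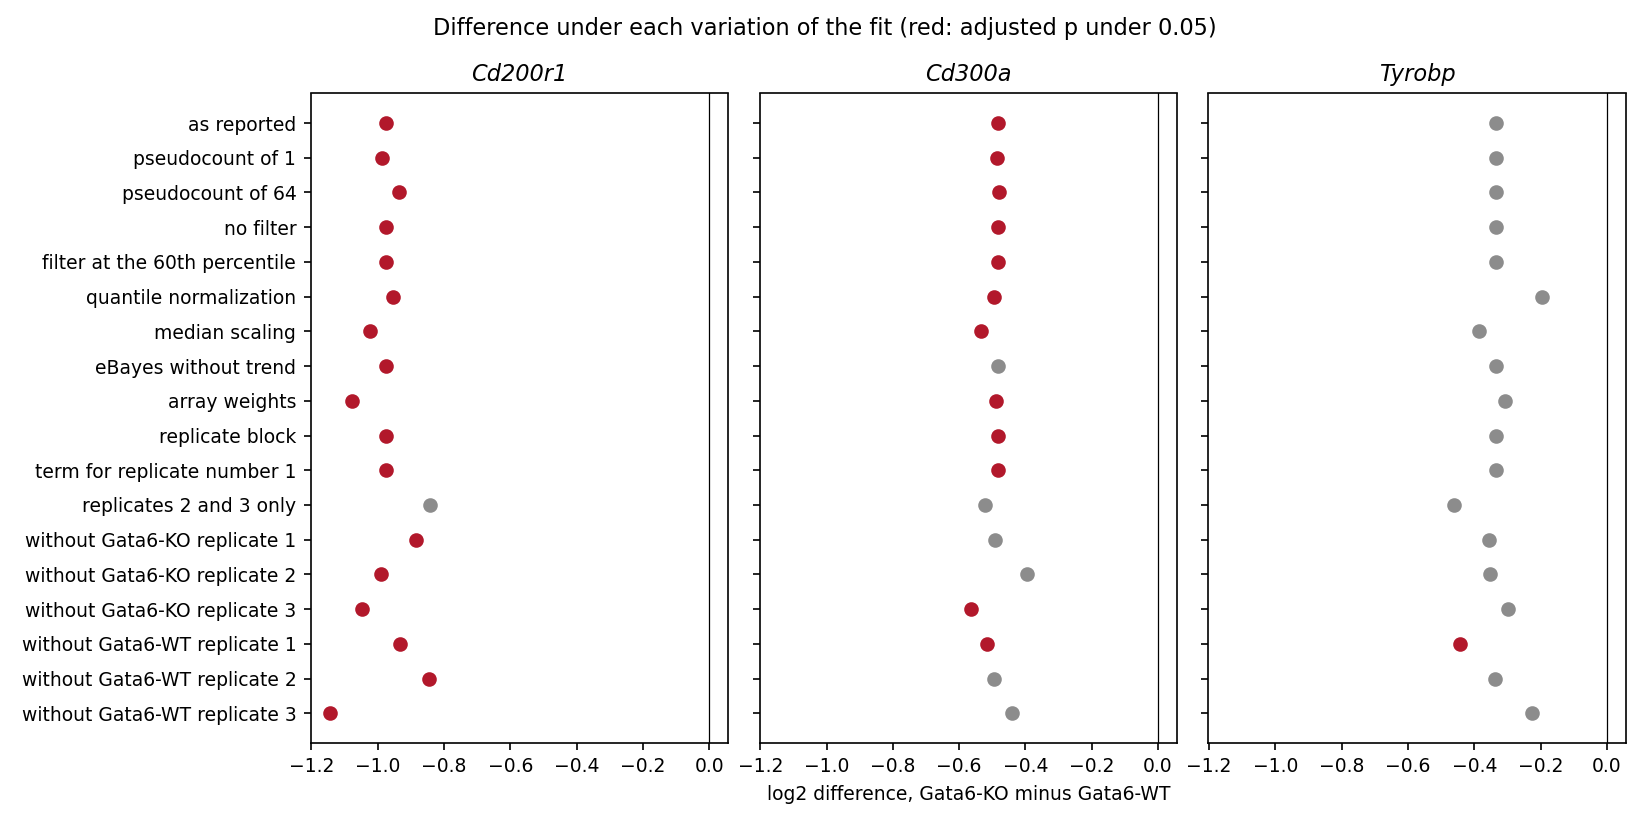
Log2 difference, Gata6-KO minus Gata6-WT (x axis), of Cd200r1, Cd300a and Tyrobp as reported and under each of 17 variations of the fit (rows). Red points have an adjusted p under 0.05 and grey points do not; Cd200r1 lies between -1.14 and -0.84, Cd300a between -0.57 and -0.40 and Tyrobp between -0.46 and -0.19.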

How the data were processed

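The deposited values are linear intensities, 1 signal per probe set and array, made by the authors with MAS5 and affy per the submitters' processing notes, with no versions given. The trimmed mean (2% off each end) was 500 on every array. MAS5 subtracts mismatch signal within each array, which leaves low intensities noisy, and no detection calls were used. The number of arrays limits the precision. Names came from the array annotation (34958 probe sets with 1 symbol, 932 with several, 9211 with none here); a probe set with several symbols names no gene.

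Signals were taken as log2(signal + 16), 64 control probe sets were left out, and probe sets with a mean above the 40th percentile (log2 5.99, a signal of 47.5) entered a two-sided limma fit (version 3.58.1, R 4.3.3; lmFit, then eBayes with a trend) with Benjamini-Hochberg adjustment. Folds are on that scale and understate changes of low signals. Ranges and SDs are over 3 pools. The members, lists, tests and variations were chosen with earlier results of these data known. Named genes are every member, up to 5 of each list past the threshold by size (or 2 by p), and further genes named for their role, which were chosen after their values were seen. The fit was also run on simulated arrays with independent noise, which leave out any effect shared by arrays of the same replicate number. Sequences are from RefSeq, GRCm38.p6. Figures used matplotlib 3.10.9 in Python 3.11.15.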

Additional observations from a re-analysis of the deposited data

How the results depend on the processing

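Over all probe sets, 2916 changed; the count was 1459 without the mean-variance trend, 1615 in replicates 2 and 3 alone, 1251 at an adjusted p under 0.01, 1256 at 2-fold or more, and 1851 to 2465 with 1 array left out. Of the members' probe sets and of the members, 2 and 2 changed; both counts were 1 without the trend and at an adjusted p under 0.01, 0 in replicates 2 and 3 alone and at 2-fold or more, and 1 to 3 with 1 array left out. The gene count was 1 with the mean of each gene's probe sets. Of 69 list genes tested, 18 changed, against 13.1% of all genes tested. The list count was 11 without the trend, 10 at an adjusted p under 0.01, 9 at 2-fold or more, and 13 to 16 with 1 array left out. Stricter thresholds can only give fewer calls by construction. Leaving out an array need not: without Gata6-WT replicate 1 the members' count rose from 2 to 3. The cause of the losses with fewer arrays or without the trend was not tested.

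Pseudocounts of 1 and 64, other filters, quantile normalization, median scaling, array weights and a term for replicate number 1 left the members' count at 2. Signs turned at probe sets that did not pass. With 1 array left out, the 3 Lair1 probe sets ran from -0.075 to 0.56, -0.33 to 0.54 and -0.49 to 0.019, and 2 of Sirpa from -0.14 to 0.036 and -0.017 to 0.66; with array weights a Lair1 probe set was at -0.073. Same-numbered arrays of the genotypes had deviations correlating at 0.13, 0.07 and 0.07, and each array correlated best with its own number. The correlations are a hint from the data and no pairing by design. The pools numbered 1, at 0.13, were also the only ones that looked male, so sex and replicate number cannot be told apart there. With the replicate number as a block, 2 members, 3076 probe sets and 22 list genes changed.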
